A study of Mus musculus with 12 samples.

Results

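*miR-122* is the miR by which liver parenchyma is best known, and both of its mature arms, *miR-122-5p* and *miR-122-3p* (mmu-miR-122-5p and mmu-miR-122-3p in the table), were followed in every miR-seq library of the series. They were chosen by name and are 2 of the 1927 mature miRs listed in the count table, of which 682 had a read in at least 1 library and 388 passed the filter on low counts, both arms among them. Small RNA sequencing (miR-seq) was done on E18.5 livers of 5 WT and 7 Mir483Pat-KO female fetuses on a C57BL/6J background, with 1 library per fetus. Mir483Pat-KO fetuses carried a deletion of *Mir483*, a miR gene within *Igf2*, inherited from the father, and WT fetuses were littermate controls without it. The deletion was made in C57BL/6N embryonic stem cells, from which more than 1 clone was injected, and the clone behind these fetuses is not given in the sources used here. It passes through the germline, so all cells of the fetus carry it and no single cell type is targeted.

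A miR is cut from the stem of a hairpin, and either side of the stem can give a mature miR, named 5p or 3p after its side. The arm that is kept is loaded into an Argonaute protein and finds target mRNAs mainly through its seed, bases 2 to 8, and the other arm is mostly degraded. *miR-122-5p* is the kept arm of *miR-122*, is made in hepatocytes, and is known for its part in hepatocyte differentiation, cholesterol and lipid metabolism and the replication of hepatitis C virus. The liver of a late fetus is also a site of blood formation, so a whole liver holds red cell precursors beside hepatocytes.

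*Mir122* (ENSMUSG00000065402.1) is a hairpin of 66 bases on the plus strand of chromosome 18, at 65248861 to 65248926 in GRCm38. It sits inside the long noncoding RNA gene AC157910.3 (65244287 to 65252621, plus strand), within the last exon (65245359 to 65252621) of one annotated transcript and downstream of the last exon of the other. The nearest protein-coding genes are *Nedd4l*, which ends 31032 bases before the hairpin, and *Alpk2* (minus strand), whose nearer end lies 16602 bases after it.

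Library totals, the reads counted on any miR, ran from 658665 to 1211160. The deletion check was clear in every library: *miR-483-3p* had 733 to 1281 reads in WT and 0 to 19 in Mir483Pat-KO, and *miR-483-5p* had 245 to 371 and 0 to 4. No 2 libraries of a genotype agreed within sampling noise, since the chi-square of their counts was 5.11 to 37.8 per degree of freedom over 31 pairs. The animal numbers in the labels fall in a lower range (4 WT and 4 Mir483Pat-KO fetuses) and an upper range (1 WT and 3 Mir483Pat-KO fetuses), and the labels give WT libraries the indices 37 to 41 and Mir483Pat-KO libraries 42 to 48.

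The miRs set beside *miR-122* below are the other 4 most abundant miRs of these livers and those whose levels moved most with or against it from library to library. Their mature sequences are shown because they say which miRs share the library with it. RefSeq (GRCm38.p6) gave a sequence for 12 of the 13, all but *miR-30b-5p*, and those 12 have 12 different seeds. Seeds are in capitals.
miR-127-3p (chr12:109592888-109592909, plus strand): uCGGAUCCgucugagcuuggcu
miR-22-3p (chr11:75463772-75463793, plus strand): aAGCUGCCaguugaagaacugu
miR-30a-5p (chr1:23272274-23272295, plus strand): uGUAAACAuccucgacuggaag
miR-192-5p (chr19:6264857-6264877, plus strand): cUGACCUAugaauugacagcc
miR-28a-5p (chr16:24827868-24827889, plus strand): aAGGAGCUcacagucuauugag
miR-423-3p (chr11:77078086-77078108, minus strand): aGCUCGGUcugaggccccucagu
miR-181a-5p (chr1:137966468-137966490, plus strand, and chr2:38852741-38852763, plus strand): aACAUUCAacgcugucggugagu
miR-300-3p (chr12:109724363-109724384, plus strand): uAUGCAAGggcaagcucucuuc
miR-370-3p (chr12:109618305-109618326, plus strand): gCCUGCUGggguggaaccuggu
miR-409-3p (chr12:109743204-109743225, plus strand): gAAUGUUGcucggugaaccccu
miR-322-3p (chrX:53054269-53054289, minus strand): aAACAUGAagcgcugcaacac
let-7a-5p (chr13:48538239-48538260, minus strand, 1 of its loci): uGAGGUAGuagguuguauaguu

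*miR-122-5p* gave 14.0% ± 1.33 (SD, n = 12) of the counted reads of these fetal livers. It took 15.5%, 13.7%, 14.5%, 14.2% and 13.5% of the counted reads of WT replicates 1 to 5. In Mir483Pat-KO its share was 11.8% at the lowest, 13.7% at the median and 16.5% at the highest. The WT values all lie inside the Mir483Pat-KO range, so the genotypes overlapped fully. The share averaged 14.3% ± 0.796 (SD, n = 5) across WT libraries and 13.8% ± 1.64 (SD, n = 7) across Mir483Pat-KO libraries, a difference of -0.53 percentage points that did not exceed the fetus-to-fetus spread (exact permutation test over 792 splits, two-sided, p = 0.523). Within the lower animal-number range the difference pointed the other way, at 0.32 percentage points (p = 0.686 by the same exact test). Counting error was small beside this spread, the 95% Wilson interval of the first WT library being 15.4% to 15.6%.

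**Figure D1:**
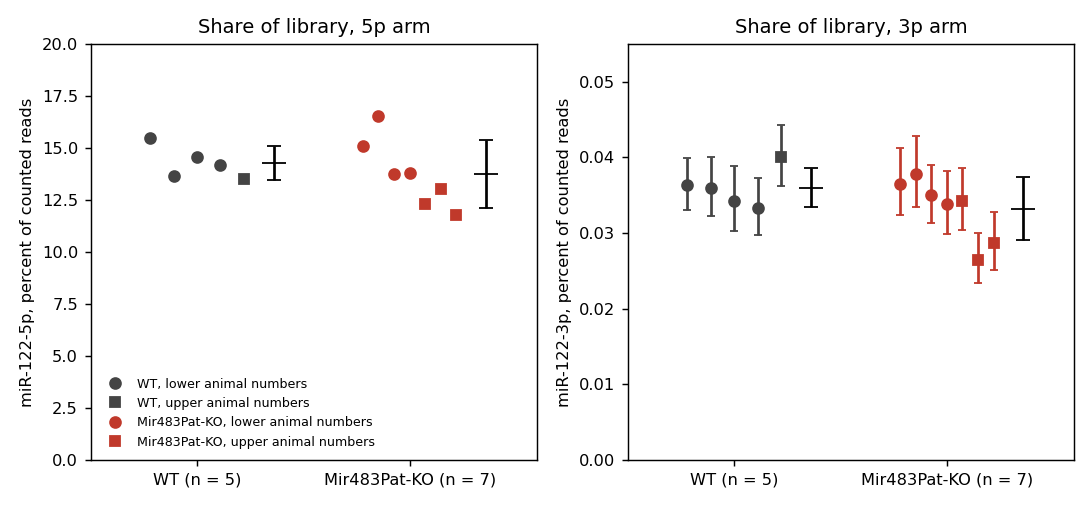
Share of counted reads taken by *miR-122-5p* (left) and *miR-122-3p* (right), in percent of each library's total, one point per fetus with its 95% Wilson interval, round for lower and square for upper animal numbers, and a black bar for the mean ± SD of the genotype. The 5p arm lies between 11.8% and 16.5% and the 3p arm between 0.0265% and 0.0400% of the reads, and WT and Mir483Pat-KO points overlap for both.

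Only *miR-127-3p*, a miR of the imprinted region between *Dlk1* and *Dio3*, was more abundant on average, with a mean share of 15.7% ± 0.714 (SD, n = 12). *miR-122-5p* ranked first in 2 libraries, the first WT and the second Mir483Pat-KO library, and second in the other 10. Behind it came *miR-22-3p* at 10.5% ± 0.913 (SD, n = 12), *miR-30a-5p* at 7.89% ± 0.579 and *miR-192-5p*, another miR of liver and gut epithelium, at 4.21% ± 0.451. The leading pair together held 28.3% to 31.4% of each library. Ligation and amplification favour some small RNAs over others, so the order of different miRs in a library is an order of reads and not of molecules.

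Scaled by TMM and given as CPM, counts scaled to a common library size, *miR-122-5p* stood at 161041, 130596, 138963, 138973 and 126714 CPM in WT replicates 1 to 5. In Mir483Pat-KO the lowest library had 118494, the median 138618 and the highest 169645 CPM. Both the highest and the lowest library were thus Mir483Pat-KO, with all WT libraries between them. WT averaged 139257 ± 13295 CPM (SD, n = 5), and Mir483Pat-KO averaged 140214 ± 16668 CPM (SD, n = 7). On the log2 scale the 2 genotypes differed by 0.0099 (standard error 0.079, 95% interval -0.16 to 0.18, Benjamini-Hochberg adjusted p = 0.976, edgeR quasi-likelihood test), a value whose sign changed with the scaling, being -0.0049 with RLE and -0.054 with library size alone. By this fit 8 of 388 miRs were called, which is 2.06% of those tested, and neither arm of *miR-122* was among them. The interval leaves room for a difference in either direction of up to about the SD between fetuses on this scale, which was 0.13 in WT and 0.17 in Mir483Pat-KO. With the library index as a linear covariate the value moved to 0.40 (95% interval 0.19 to 0.60, adjusted p = 0.0740), in a design where index and genotype do not overlap.

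*miR-122-3p*, the arm that is mostly degraded, was a minor miR in all libraries. It had 440, 334, 244, 306 and 373 reads in WT replicates 1 to 5. In Mir483Pat-KO it had 213 reads at the lowest, 251 at the median and 316 at the highest. It ranked between 117 and 136 of the miRs in each library and 123 by its mean share. WT averaged 350.1 ± 24.9 CPM (SD, n = 5), and Mir483Pat-KO averaged 338.6 ± 41.2 CPM (SD, n = 7). On the log2 scale the difference was -0.052 (standard error 0.089, 95% interval -0.24 to 0.14, adjusted p = 0.833 by the same edgeR test). The groups overlapped, although the lowest pair of libraries, at 275.9 and 289.1 CPM, were both Mir483Pat-KO of the upper animal-number range. Without the upper range the value was 0.057, and with the library index as a covariate 0.26 (adjusted p = 0.858 and 0.980 by edgeR), both of the opposite sign. An opposite-strand hairpin, *Mir122b*, overlies the same bases, and its 2 listed arms had no read in any library.

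The 5p arm outnumbered the 3p arm by far. There were 427, 380, 424, 425 and 338 reads of *miR-122-5p* per read of *miR-122-3p* in WT replicates 1 to 5. In Mir483Pat-KO the lowest ratio was 359, the median 410 and the highest 492. The widest values on both sides, 338 and 492, came from libraries of the upper animal-number range, while the 8 lower-range libraries lay between 380 and 438. On the log2 scale, which needs no scaling between libraries because both arms come from the same one, the ratio averaged 8.63 ± 0.15 over WT fetuses (SD, n = 5) and 8.69 ± 0.14 over Mir483Pat-KO fetuses (SD, n = 7). The difference of 0.061 did not exceed that spread (exact permutation test, two-sided, p = 0.486). Put as a share, the 3p arm gave 0.203% to 0.295% of the reads of both arms.

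**Figure D2:**
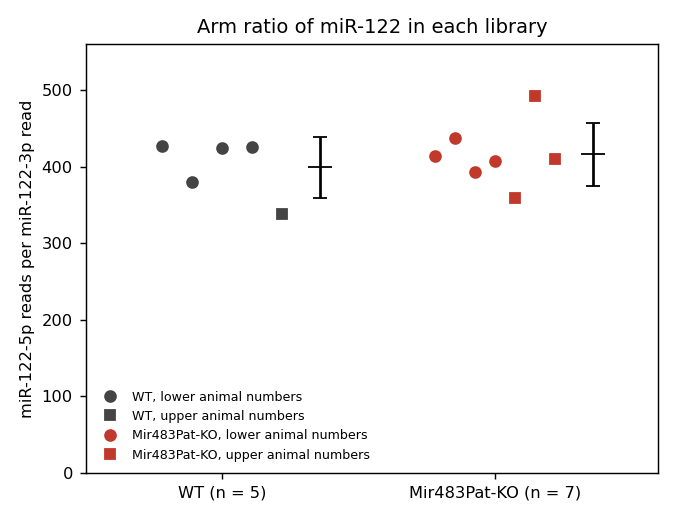
Reads of *miR-122-5p* per read of *miR-122-3p*, one point per fetus (round, lower, and square, upper animal numbers) with the mean ± SD of the genotype in black. All 12 libraries lie between 338 and 492, and the genotypes overlap.

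Among the 95 hairpins with both arms tested, *miR-122* was the sixth most one-sided, with a mean log2 ratio of 8.67 ± 0.14 (SD, n = 12). The median hairpin had 2.48 in either direction. Of the 95, 56 gave more reads from the 5p arm and 39 from the 3p arm. Next above it was *let-7i*, with a log2 ratio of 8.94 ± 0.35 (SD, n = 12), and next below *let-7g*, with 8.65 ± 0.33, which differ from it by less than their spread between libraries. The ratios of such hairpins rest on few reads of the minor arm, 166 in all 12 libraries for *let-7i* and 249 for *let-7g* against 3502 for *miR-122*. With at least 10 reads of each arm asked of every library, 67 hairpins were left and *miR-122* was the second in that order.

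**Figure D3:**
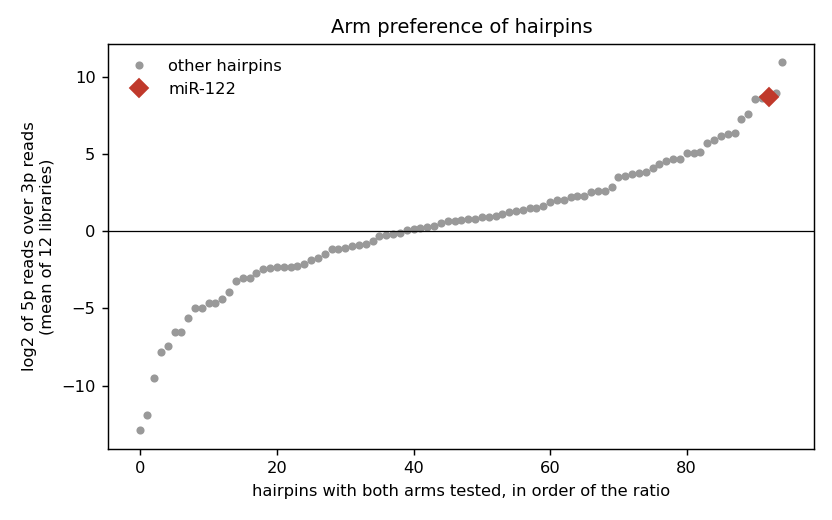
Mean over 12 libraries of the log2 ratio of 5p to 3p reads for each of the 95 hairpins with both arms tested, in order of the ratio, with *miR-122* as the red diamond. It sits at 8.67, near the top of the 56 hairpins that gave more 5p reads.

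The level of *miR-122-5p* varied far more between fetuses than counting allows. The SD of its log2 CPM was 0.13 in WT and 0.17 in Mir483Pat-KO, where counting error alone gives 0.0040 and 0.0044. The mean absolute deviation from the genotype's median was 0.087 in WT and 0.12 in Mir483Pat-KO (two-sided exact permutation test of the difference, p = 0.625). The spread therefore did not differ detectably between genotypes. Of the 20 most abundant miRs, 8 had a larger SD than *miR-122-5p* in WT and 2 in Mir483Pat-KO, against a median SD of 0.12 and 0.084. For *miR-122-3p* counting error was a larger part, with SDs of 0.10 and 0.18 where counting gives 0.080 and 0.090.

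Both arms tended to be high in the same libraries, but the relation did not pass the test. Over 12 libraries, with each genotype's mean taken off, Pearson's r of the log2 CPM was 0.57 (permutation p = 0.0773, adjusted p = 0.155 over the 2 correlations tested) and Spearman's rho was 0.52 (permutation p = 0.107, adjusted p = 0.213). Without the 2 libraries farthest from the median of *miR-122-5p*, r was 0.23, so it rests on them. Within the 8 libraries of the lower animal-number range, a subset chosen after seeing the data, r was 0.85 (permutation, adjusted p = 0.0413). Spearman's rho was 0.64 there (permutation p = 0.132, unadjusted) and did not pass. The upper range holds too few libraries for a value of its own.

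The level of *miR-122-5p* fell along the order of the library indices in a fit beside genotype, a comparison made after the values were seen. In WT it was 161041 CPM at the first index and 126714 CPM at the last, and in Mir483Pat-KO 152186 CPM at the first and 118494 CPM at the last. It did not fall steadily, rising from 130596 CPM in WT replicate 2 to 138973 CPM in WT replicate 4. It was highest in Mir483Pat-KO at the second library, with 169645 CPM. Its slope beside genotype was -0.065 log2 units per index number (standard error 0.014, 95% interval -0.095 to -0.036, adjusted p = 0.0165, edgeR). It was 1 of 12 miRs called in this fit, 3.09% of the 388 tested. The call was lost without the first Mir483Pat-KO library (adjusted p = 0.0622) and without the seventh (adjusted p = 0.120), where the slopes were -0.066 and -0.061 and 3 and 4 miRs were called. In the Mir483Pat-KO fetuses alone the slope was -0.065 (edgeR adjusted p = 0.0193), in a fit that called 13 of 301 miRs tested. The WT fetuses were not fitted alone. *miR-122-3p* had a slope of -0.053 (adjusted p = 0.230 by edgeR), which was not called. The animal numbers rise with the index within each genotype, so index, animal number and anything that went with them cannot be told apart.

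Split by the animal-number range, the 4 upper-range libraries gave 11.8% to 13.5% of their reads to *miR-122-5p*, and the 8 lower-range libraries 13.7% to 16.5%. These shares do not overlap, whereas on the TMM scale the ranges do, at 118494 to 135717 and 130596 to 169645 CPM. How many other miRs have shares that separate in this way was not counted, so this is no result about *miR-122-5p*. Beside genotype, the upper range was lower by a log2 difference of -0.22 (standard error 0.066, 95% interval -0.36 to -0.073, adjusted p = 0.160 by edgeR), which was not called. No miR was called between the ranges (0% of 388) by edgeR, where 41 had an unadjusted p under the threshold of 0.05, 17 were called by DESeq2 and 2 by limma-voom. Without the sixth Mir483Pat-KO library edgeR called 6. In DESeq2's test the adjusted p of *miR-122-5p* was 0.0401. What the animal numbers stand for is not given in the sources used here, and the range split was likewise made after seeing the values.

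**Figure D4:**
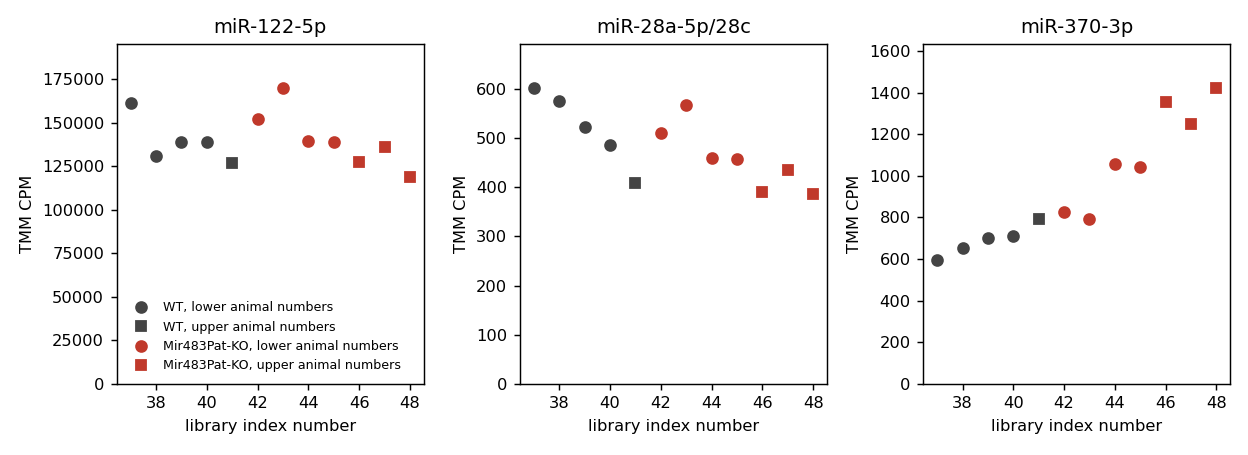
TMM CPM of *miR-122-5p*, *miR-28a-5p/28c* and *miR-370-3p* against the library index number, one point per fetus, grey for WT and red for Mir483Pat-KO, round for lower and square for upper animal numbers. *miR-122-5p* ends each genotype's run lower than it began, at 126714 and 118494 CPM. *miR-28a-5p/28c*, picked as most like it, goes from 601 to 409 CPM in WT and from 511 to 385 in Mir483Pat-KO. *miR-370-3p* goes from 596 to 794 and from 828 to 1421. It is among those most unlike *miR-122-5p* (r = -0.90, behind *miR-300-3p* at -0.91) and was also called between genotypes.

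Ranked by how their levels followed *miR-122-5p* over the 12 libraries, 142 other miRs whose mean log2 CPM was 8 or more gave Pearson's r of both signs, with a median of 0.019. These correlations describe libraries that share a total and an index order, and carry no test. Highest were *miR-28a-5p/28c* (r = 0.85), *miR-423-3p* (r = 0.85) and *miR-181a-5p* (r = 0.84), the last known from lymphoid and progenitor cells. The other arm, *miR-122-3p*, came at place 25 with r = 0.57. The miRs most like *miR-122-3p* were *miR-322-3p* (r = 0.82), *let-7a-5p* (r = 0.80) and *miR-30b-5p* (r = 0.76), all over 12 libraries. Reads of near-identical *let-7* miRs may be shared in counting, so *let-7a-5p* is uncertain on its own.

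Lowest were *miR-300-3p* (r = -0.91), *miR-370-3p* (r = -0.90) and *miR-409-3p* (r = -0.86), whose sequences above all lie on chromosome 12 between *Dlk1* and *Dio3*, an imprinted region whose miRs are read from the maternal chromosome. *miR-370-3p* was 596, 653, 702, 712 and 794 CPM in WT replicates 1 to 5, and 793 CPM at the lowest, 1057 at the median and 1421 at the highest in Mir483Pat-KO. Of the WT libraries, the one with the lowest *miR-370-3p* had the highest *miR-122-5p*. *miR-370-3p* was also 1 of the 8 miRs called between genotypes, higher in Mir483Pat-KO by 0.68 on the log2 scale (SE 0.14, edgeR adjusted p = 0.0194). Beside genotype it rose along the library index too, by 0.13 log2 units per index number (SE 0.019, edgeR adjusted p = 0.00119). Index and genotype do not overlap in this design, and the part of the index in the genotype difference was not tested. RefSeq placed 130 of the 142 miRs, 41 of them between *Dlk1* and *Dio3* (chromosome 12, 109463336 to 110279230), a grouping made after these values were seen. Of those 41, 35 had an r with *miR-122-5p* below 0, with a median of -0.42, and of the other 89, 32 did, with a median of 0.22. With *miR-122-3p*, 32 of the 41 were below 0 and 33 of the 89. The 41 lie in the same region and include both arms of some hairpins, *miR-127* among them, so they are not independent.

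**Figure D5:**
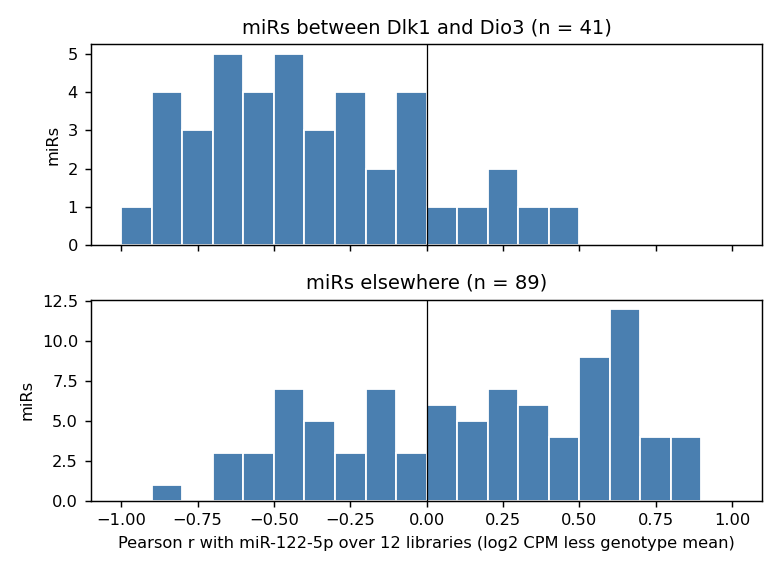
Number of miRs by Pearson's r with *miR-122-5p* over 12 libraries (log2 CPM less the genotype mean), for the 41 miRs placed between *Dlk1* and *Dio3* (top) and the 89 placed elsewhere (bottom). The upper histogram has a median of -0.42 and the lower one 0.22.

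In whole liver, fewer hepatocytes and less *miR-122* per hepatocyte cannot be told apart, so the miRs known from other cells are given beside it. Of 12 hepatocyte entries, *miR-122* included, 10 were tested and none was called, with 4 higher and 6 lower in Mir483Pat-KO and a median log2 fold change of -0.025, against 0.0028 over all miRs tested. Their summed level was 198230 to 224490 CPM in WT and 187730 to 236360 CPM in Mir483Pat-KO, most of it *miR-122-5p*. *miR-192-5p* had 40960 CPM in WT and 42945 in Mir483Pat-KO on average, and *miR-101a-3p/101b-3p/101c* 16993 and 16791. Of the hepatocyte entries, *miR-122-5p*, *miR-192-5p*, *miR-101a-3p/101b-3p/101c*, *miR-148a-3p* and *miR-194-5p* had reads in all 12 libraries, while *miR-802-3p* was listed at 0 in 10 and *miR-194-1-3p* in all.

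Erythroid miRs, from the red cell precursors of fetal liver, summed to 23868 to 32006 CPM in WT and 25940 to 37850 CPM in Mir483Pat-KO. Their 5 tested entries include both arms of *miR-144* and of *miR-486*, so they are not independent, and none was called. All 5 had higher fitted values in Mir483Pat-KO, with a median log2 fold change of 0.21, against 50.3% of all 388 miRs tested. The count was 3 of 5, with a median of 0.079, in the lower animal-number range alone, 4 of 5 with the replicate block, and 2 of 5, with a median of -0.096, with the library index as a covariate. *miR-486a-5p/486b-5p* stood at 14152 CPM in WT and 16872 in Mir483Pat-KO, *miR-451a*, known for its part in red cell maturation, at 8209 and 8991, and *miR-144-3p* at 3363 and 4257. Their summed level did not follow that of *miR-122-5p*, with r = -0.072 (permutation p = 0.825, adjusted p = 0.825) and rho = -0.021 (permutation p = 0.958, adjusted p = 0.958) over 12 libraries, and r = 0.19 without the 2 libraries farthest from the median. Within the lower range r was 0.15.

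In the lists of other cell types 0 of 23 tested entries were called, and at 2.06% of all miRs called this is no result about them. White blood cell miRs summed to 11352 to 14598 CPM in WT and 13116 to 14809 CPM in Mir483Pat-KO, led by *miR-142a-5p*, *miR-142a-3p* and *miR-223-3p*, with 0 of 4 tested entries called. Stellate and smooth muscle miRs, led by *miR-143-3p*, *miR-199a-5p* and *miR-199a-3p/199b-3p*, had 30624 to 34690 and 31439 to 36548 CPM, with 0 of 9 called. Endothelial *miR-126a-3p* and *miR-126a-5p* summed to 952 to 1260 and 724 to 1219 CPM, with 0 of 2 called. Biliary miRs, led by *miR-429-3p*, *miR-200b-3p* and *miR-200a-3p*, had 1212 to 2016 and 1205 to 1677 CPM, with 0 of 6 called. Muscle, brain and pancreas miRs, which liver is not known to make in quantity, had 178 to 330 CPM in WT and 167 to 718 CPM in Mir483Pat-KO, with 0 of 2 called and the neural *miR-124-3p* at 0 in all 12 libraries. Between the animal-number ranges the mean hepatocyte sum was 210800 CPM in the lower and 198670 in the upper. That sum holds *miR-122-5p*, at a mean of 146173 and 127100 CPM. Other abundant hepatocyte entries differed, upper against lower beside genotype, by log2 values of 0.22 (*miR-192-5p*), 0.040 (*miR-101a-3p/101b-3p/101c*), 0.044 (*miR-148a-3p*) and -0.052 (*miR-194-5p*). None of these was called by edgeR. Unlike these fitted differences, the sums by range are plain means with no term for genotype, whose mix differs between the ranges. The erythroid sum was 29094 CPM in the lower and 32040 in the upper. In the same order the white blood cell sum was 13771 and 13470, the stellate and smooth muscle sum 33531 and 32621, the endothelial sum 1101 and 871, the biliary sum 1623 and 1272, and the muscle, brain and pancreas sum 300.7 and 195. Their part in the level of *miR-122-5p* was not tested.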

How the data were processed

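The authors made small RNA libraries (TruSeq Small RNA kit, NovaSeq6000) from total liver RNA and used miRge to align and count reads. The deposited values are raw counts of reads per mature miR, neither normalized nor pooled. The miR reference and adapter trimming are not given in the sources used here, and the labels name GRCm38. Genotypes and replicate numbers come from the sample labels. Members and lists were chosen with earlier results of these data known.

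Counts were filtered with filterByExpr (minimum count 10, minimum total 15), scaled by TMM and compared in edgeR 4.0.16 (R 4.3.3) by its quasi-likelihood F-test (legacy = TRUE). Genotype was the only term, p-values were adjusted by Benjamini-Hochberg over 388 miRs, and a miR was called at an adjusted p under 0.05. Shares, arm ratios and spread were compared by exact permutation over 792 splits, whose smallest p is 0.00126, and correlations by 100000 permutations within genotype. Arm ratios of hairpins with a 0 had 0.5 added to both arms, and likeness used log2(CPM + 1). Named miRs were both arms, *miR-483*, the 4 other most abundant miRs, the 3 most abundant entries of each cell type list, the 3 highest and lowest correlations with *miR-122-5p* and the 3 highest with *miR-122-3p*, and neighbours in arm preference. Alternatives were other scalings and filters, DESeq2 1.42.0, limma-voom (limma 3.58.1), covariates, and leaving out each fetus. The code was tested on simulated counts. Wilson intervals cover counting error only, and can be too narrow because PCR reads are not independent molecules. Intervals of differences and slopes come from the standard error of the edgeR fit, which includes the spread between fetuses. The labels name separate fetuses of a genotype, and p-values of differences and slopes set these against the spread between fetuses. No test holds a term for litter, which the labels do not name, so fetuses were treated as independent. Totals per library, 658665 to 1211160, put 3 counts at 2.48 to 4.55 CPM.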

Additional observations from a re-analysis of the deposited data

Results flagged for a closer look

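In 22 groups of libraries (both arms, the share, the arm ratio and the summed level of each of 7 cell type lists, in each genotype), a library stood apart from the rest of its group in 2, by the gap to its nearest neighbour over the whole range. Chance flags about 1 group in 20. The summed hepatocyte miRs of the first WT library, at 224490 CPM, stood above the next, at 202380 CPM, by 0.842 of the range. Most of that sum is *miR-122-5p*, at 161041 CPM in this library and 138973 CPM in its next highest WT library. The flag thus largely counts *miR-122-5p* again. On its own *miR-122-5p* did not stand apart, at 0.643 of the range against a limit of 0.71. The summed muscle, brain and pancreas miRs of the first Mir483Pat-KO library, at 718 CPM against 240.4 CPM in the next, stood apart by 0.867 of the range. Its *miR-9-5p*, known from neural tissue, stood at 499.5 CPM, the highest of the 12 libraries.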

How the results depend on the processing

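Neither arm of *miR-122* was called between genotypes under any of the 28 alternatives run. The log2 fold change of *miR-122-5p* turned negative with RLE scaling (-0.0049), library size alone (-0.054), DESeq2 (-0.0049), all miRs unfiltered (-0.014), a minimum of 10 counts per library (-0.013), a minimum of 1 CPM reached by 5 libraries (-0.015) and TMM that leaves out the 2 leading miRs (-0.012), and ran from -0.066 to 0.067 with each fetus left out. That of *miR-122-3p* turned positive with the replicate block (0.045), the index covariate (0.26) and the lower range alone (0.057). The number of miRs called was 14 with library size alone, 27 with DESeq2, 3 with the replicate block, 5 with the range as a factor, 3 with the index covariate, 2 in the lower range alone, and 3 to 12 with each fetus left out. It fell to 5 without WT replicate 2, to 3 without WT replicate 3 and to 4 without Mir483Pat-KO replicate 4, 5, 6 or 7. Between the animal-number ranges DESeq2 called 17 miRs, *miR-122-5p* among them (-0.22), limma-voom 2, and leaving out each fetus 0 to 6. Along the library index DESeq2 called 24 miRs, leaving out each fetus gave 3 to 13, and the slope of *miR-122-5p* ran from -0.074 to -0.055, with the call lost without Mir483Pat-KO replicate 1 or 7. Of the cell type entries, 1 was called with DESeq2, 1 with the index covariate, and 0 to 1 with each fetus left out (without WT replicate 1 and without Mir483Pat-KO replicate 3). The share of *miR-122-5p* was higher in Mir483Pat-KO by 0.32 percentage points in the lower range alone and by 0.017 with the replicate block. The log2 arm ratio differed by -0.0034 in the lower range alone and by -0.050 with medians. The difference in spread ran from -0.00042 (without Mir483Pat-KO replicate 2) to 0.060. The correlation of both arms passed the threshold in the lower range alone (r = 0.85). That with erythroid miRs was 0.19 without the 2 farthest libraries and 0.15 in the lower range, and ran from -0.38 to 0.12 with each fetus left out. Of the 6 miRs most and least like *miR-122-5p*, 1 stayed among them in WT alone and 2 in Mir483Pat-KO alone. The cause of these changes was not tested.

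Whether same-numbered fetuses shared more than a number is not given in the sources used here, but each pair fell in the same animal-number range. The correlation of their deviations from the genotype means ran from -0.24 to 0.23 over 5 pairs, which cannot settle it. With the replicate block the log2 fold changes were 0.061 for *miR-122-5p* and 0.045 for *miR-122-3p*, and no call on either arm changed. Depth limits *miR-122-3p*, at 213 to 440 reads, and hardly *miR-122-5p*.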
